A study of Mus musculus with 6 samples.

Results

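The genes described here encode factors that build ribosomes, and they were followed in mouse limb cells sorted for a nuclear GFP reporter of Pax7, which encodes a transcription factor of muscle stem and progenitor cells. The set is a list of 42 gene symbols chosen by function, with earlier results of these data known. For each symbol the brightest annotated probe set, by its mean on the 6 arrays, was taken. This gave 41 of the 42 genes, among 18182 genes in all, and Npm3 was not analysed here. Cells from limbs of E17.5 embryos (3 arrays) were set against cells from limbs of E12.5 embryos (3 arrays). All 6 carried the Tg:Pax7-nGFP transgene on a mixed C57BL/6:DBA2 background, so the sorted cells at both ages are defined by the activity of the Pax7 transgene. The labels call the 3 arrays of an age biological replicates A, B and C, without saying how many embryos went into one.

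Ribosome production begins in the nucleolus, where RNA polymerase I transcribes a long precursor of the ribosomal RNAs. Small nucleolar ribonucleoprotein particles (snoRNPs) guide chemical modification of that precursor: box C/D particles direct methylation and box H/ACA particles direct pseudouridylation. The small subunit processome and a separate group of assembly factors then fold, cut and export the precursors of the small and the large ribosomal subunit. The genes of this pathway are known targets of the Myc transcription factors and are most active in growing cells. Cad, Srm and Odc1, which make pyrimidines and polyamines, are not ribosome factors but belong to the same growth program and are in the list.

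Values are log2 signals as the authors deposited them, a mean is followed by the SD of its 3 arrays, and a negative log2 difference means a lower signal at E17.5. Standard errors (SE), 95% intervals and Benjamini-Hochberg adjusted p-values come from limma, fitted over all 18182 genes, and a gene is called when its adjusted p is under 0.05. The array normalization sets the arrays to a common distribution, so a difference is relative to the other transcripts and a change in total RNA per cell would not appear. The array medians lay between 3.38 and 3.47, and all 41 members had a mean signal of at least 6, well above the range in which 42.8% of all genes lay (under 4). E17.5 replicates A and B were nearly alike: the SD of their difference over 8758 genes was 0.152, while the remaining pairs of one age had 0.412 to 0.551. Counts are therefore also given with these 2 arrays averaged and counted as 1 sample.

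Promoters of 3 members are printed here because many members were lower together, and Myc factors are known to bind promoters of this pathway. The sequences are RefSeq windows of 300 bases on GRCm38.p6, running from 250 bases before the annotated start to 50 bases after it, and capitals mark the letters CACGTG, the E-box that Myc with its partner Max is known to bind. Mybbp1a lies at chr11:72441077-72441376 (plus strand), Nop2 at chr6:125131633-125131932 (plus strand) and Cad at chr5:31054530-31054829 (plus strand).
Mybbp1a: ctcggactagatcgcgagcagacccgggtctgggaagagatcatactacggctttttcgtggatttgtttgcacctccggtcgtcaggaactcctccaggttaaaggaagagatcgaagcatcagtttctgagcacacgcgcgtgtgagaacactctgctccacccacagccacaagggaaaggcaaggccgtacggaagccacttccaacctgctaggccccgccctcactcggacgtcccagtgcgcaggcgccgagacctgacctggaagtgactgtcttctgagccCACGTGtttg
Nop2: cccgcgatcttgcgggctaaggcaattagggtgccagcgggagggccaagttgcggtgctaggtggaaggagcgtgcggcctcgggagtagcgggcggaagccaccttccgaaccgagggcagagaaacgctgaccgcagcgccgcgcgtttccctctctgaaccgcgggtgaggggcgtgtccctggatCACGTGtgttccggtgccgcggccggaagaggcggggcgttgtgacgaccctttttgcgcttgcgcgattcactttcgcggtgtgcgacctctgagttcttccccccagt
Cad: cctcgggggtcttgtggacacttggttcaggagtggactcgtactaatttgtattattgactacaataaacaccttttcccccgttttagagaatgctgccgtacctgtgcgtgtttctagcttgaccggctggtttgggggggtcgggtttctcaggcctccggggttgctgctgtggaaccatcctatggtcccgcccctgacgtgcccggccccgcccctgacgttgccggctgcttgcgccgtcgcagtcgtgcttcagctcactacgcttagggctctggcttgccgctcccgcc
The CACGTG of Mybbp1a begins 40 bases after the start and that of Nop2 lies 60 bases before it, while the Cad window holds none. A window was found for 35 of the 41 members. In 6 of these genes (17.1%) a window held CACGTG on either strand, against 19.8% of the other ribosome biogenesis genes described further on, 12.8% of measured genes with a mean signal of at least 8 and 8.09% of all genes with a window. The 6 were Mybbp1a, Nop2, Pes1, Tsr1, Utp20 and Wdr43. Their median difference between ages was -0.31 and 1 of them was called lower, against -0.47 and 8 called among the 29 members without the letters in a window. The ETS-type letters CCGGAAG were in windows of 9 members (25.7%), against 48.5% of the other ribosome biogenesis genes with a window and 23.9% of the measured genes with a mean signal of at least 8. The palindromic Zbtb33 motif was in no member's window and in 1.72% of measured genes with a mean of at least 8. Both strands were searched, no motif contains another, and a match describes the sequence only. Bases beyond the windows were not searched, so a gene without a match, such as Cad, may hold the letters elsewhere.

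Most ribosome biogenesis genes stood lower at E17.5. The difference was below 0 in 37 of 41 members, against 54.6% of the 6206 genes with a mean signal of at least 8, the range that held 39 members. The median difference of the members was -0.44, which puts the E17.5 signal at 73.9% of that at E12.5. Over all genes the median was 0.00, and it was -0.06 in genes with a mean of 8 or more. In all, 10 members fell, none was called higher and 31 were not called; over all genes 8.73% were called lower and 8.21% higher, and among genes with a mean of at least 8 these shares were 13.0% and 13.2%. The members' own share of 24.4% therefore lay above both backgrounds in this fit. Fewer cells with high levels and less RNA per cell cannot be told apart in such samples.

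**Figure D1:**
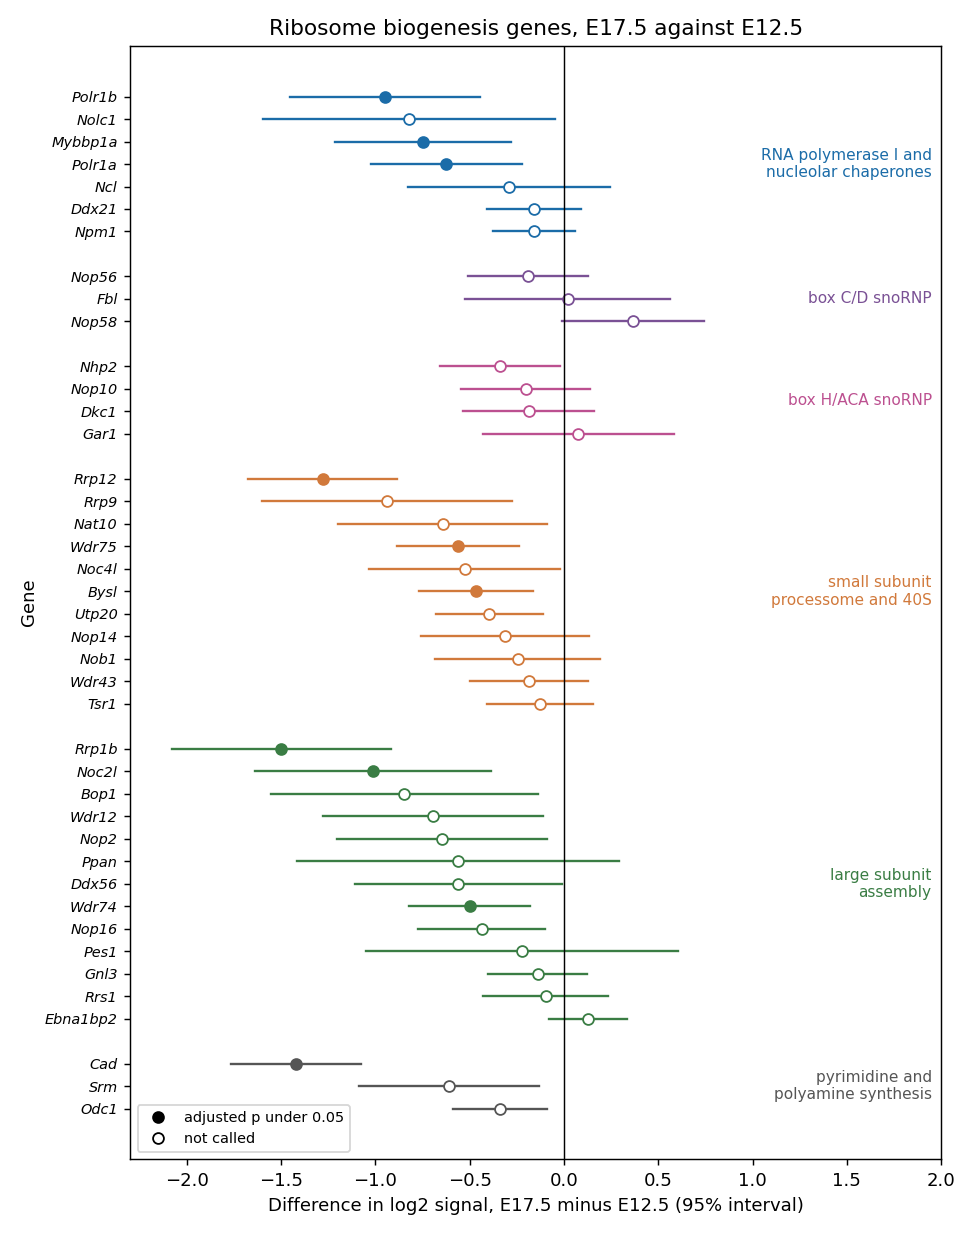
Differences in log2 signal (E17.5 minus E12.5, horizontal axis) of the 41 measured members, grouped by role, with the 95% interval of limma; filled points are the 10 members with an adjusted p under 0.05. All filled points lie left of 0, between -1.5 and -0.47, and the 7 snoRNP proteins, each at its brightest probe set, lie between -0.34 and 0.37.

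The size of these shifts was mostly modest. Of the 41 members 4 (9.76%) were called and at least 2-fold lower, namely Rrp1b, Cad, Rrp12 and Noc2l, against 5.08% of all genes. For 23 of 41 members the 95% interval lay wholly inside a 2-fold change in either direction. Without any call on a single gene, 20 members had all 3 E17.5 arrays below all 3 E12.5 arrays, against 17.2% of all genes and 24.8% of genes with a mean of at least 8, and 1 member had them all above. With E17.5 A and B averaged, 39 members had a difference below 0 and the median was -0.42, but 3 members were called lower (7.32%) and none higher, against 4.54% lower and 5.62% higher of all genes and 6.12% lower of those with a mean of at least 8, so the share of called members was then near the background. Those 3, Rrp1b, Cad and Rrp12, were also the only members called in each of 17 alternative fits.

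**Figure D2:**
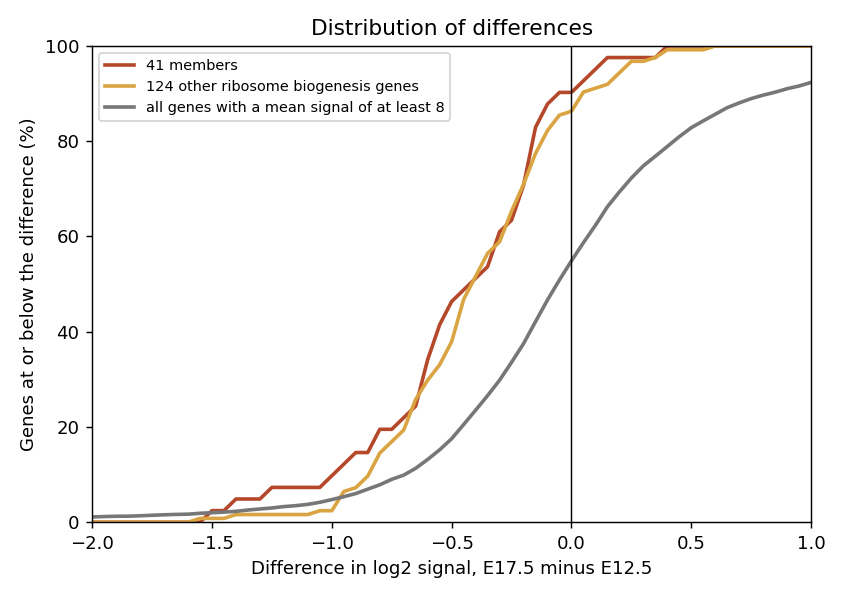
Share of genes (vertical axis, percent) with a difference at or below the value on the horizontal axis, for the 41 members, 124 other ribosome biogenesis genes and all 6206 genes with a mean signal of at least 8. At a difference of -1 the curves stand at 9.76% for the members, 2.42% for the other pathway genes and 4.75% for all bright genes.

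Both RNA polymerase I subunits in the list fell, and both calls were lost with E17.5 A and B averaged. Polr1b, which encodes the subunit that completes the catalytic centre, had 7.78, 7.70 and 8.27 in E17.5 replicates A, B and C, against 8.89, 8.61 and 9.10 in E12.5 replicates A, B and C. The ages did not overlap, and the gene fell by 0.95 (SE 0.21, adjusted p = 0.0248; 0.094 with E17.5 A and B averaged). Polr1a, the largest subunit, had 8.51, 8.41 and 8.37 at E17.5 and 8.79, 9.03 and 9.34 at E12.5. It fell by 0.62 (SE 0.17, adjusted p = 0.048; 0.137 with E17.5 A and B averaged). With the mean of its 5 probe sets, 4 of them dim, the difference of Polr1a was -0.22 and the call was lost (adjusted p = 0.803).

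Mybbp1a, a nucleolar protein that binds RNA polymerase I and takes part in rRNA processing, had 10.40, 10.60 and 10.85 at E17.5, against 11.39, 11.02 and 11.68 at E12.5. It fell by 0.75 (SE 0.20, adjusted p = 0.0443; 0.132 with E17.5 A and B averaged). Npm1, Ddx21 and Ncl differed less at their brightest probe sets. Npm1, nucleophosmin, had 14.68, 14.69 and 14.50 at E17.5, against 14.73, 14.80 and 14.82 at E12.5 (difference -0.16, 95% interval -0.38 to 0.06). Ddx21, an RNA helicase of the nucleolus, had 10.53, 10.68 and 10.42 at E17.5 and 10.64, 10.74 and 10.73 at E12.5 (difference -0.16, 95% interval -0.41 to 0.09). Neither was called, and both intervals exclude a 2-fold change. Ncl, nucleolin, differed by -0.29 (95% interval -0.83 to 0.25). Further probe sets of Ncl ran from -0.98 to 0.15 and that of Npm1 differed by -0.45, none of them called. Nolc1, a chaperone of snoRNPs, differed by -0.82 (adjusted p = 0.151), with overlapping ages. Of the 7 measured genes of this class, 3 fell and 4 were not called, with a median of -0.62.

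The core proteins of the snoRNPs showed no called difference at their brightest probe sets. Fbl, fibrillarin, the methyltransferase of box C/D particles, had 12.67, 12.57 and 11.84 at E17.5 and 12.15, 12.45 and 12.42 at E12.5 (difference 0.02, 95% interval -0.52 to 0.56). Nop56, a scaffold of the same particle, had 11.85, 11.74 and 11.60 at E17.5 and 12.07, 11.68 and 12.01 at E12.5 (difference -0.19, 95% interval -0.51 to 0.13). Its partner Nop58 had 11.43, 11.50 and 10.97 at E17.5, against 11.01, 10.82 and 10.97 at E12.5. This was the highest difference of any member, at 0.37 (95% interval -0.01 to 0.74, adjusted p = 0.186). E17.5 replicate C stood at the E12.5 level for Nop58, and without that array the gene was called higher (difference 0.53, adjusted p = 0.0191).

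Among the box H/ACA proteins, Nhp2 had 12.22, 12.34 and 12.67 at E17.5 and 12.77, 12.65 and 12.83 at E12.5 (difference -0.34, adjusted p = 0.151). Gar1 had 12.16, 12.23 and 11.51 at E17.5 and 12.01, 12 and 11.66 at E12.5 (difference 0.08, adjusted p = 0.914). The ages overlapped in both genes. Dkc1, dyskerin, the pseudouridine synthase, differed by -0.19 and the small protein gene Nop10 by -0.20, and neither was called. The other Nop10 probe set differed by -0.62 and was called lower (adjusted p = 0.0144 over all probe sets). That of Nhp2 differed by -0.77 (adjusted p = 0.0971) and those of Dkc1 by -0.41 and -0.80, none of them called. At the brightest probe sets of the 7 core proteins of both particles the differences lay between -0.34 and 0.37, with medians of 0.02 for box C/D and -0.20 for box H/ACA. Whether these classes differ from the others was not tested.

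All 11 factors of the small subunit had a difference below 0, and 3 of them fell. Rrp12, which takes part in maturation and export of both subunits in yeast, had 7.03, 6.83 and 7.03 at E17.5, against 8.34, 8.08 and 8.31 at E12.5. Its ages were separated by over 1 log2 unit, and it fell by 1.28 (SE 0.16, adjusted p = 0.00295). Wdr75, a processome subunit, had 10.53, 10.42 and 10.32 at E17.5 and 10.81, 11.23 and 10.92 at E12.5. It fell by 0.56 (SE 0.14, adjusted p = 0.0327; 0.0894 with E17.5 A and B averaged). Its other probe set, at a mean of 5.69, differed by 0.12, and with the mean of both the gene was not called (difference -0.22, adjusted p = 0.511).

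Bysl, bystin, a late factor of small subunit maturation, had 9.04, 9.10 and 9.05 at E17.5 and 9.46, 9.40 and 9.73 at E12.5. It fell by 0.47 (SE 0.13, adjusted p = 0.0494), a call that was lost without any one of the 6 arrays and with E17.5 A and B averaged (adjusted p = 0.16). Its other probe set fell by 1.77 (adjusted p = 0.000964 over all probe sets), so the 2 differed in size and not in sign. Tsr1, a GTPase-like factor of the same late particle, had the smallest difference of the class. It had 12.01, 11.92 and 11.86 at E17.5 and 12.27, 11.92 and 11.98 at E12.5 (difference -0.13, 95% interval -0.41 to 0.15). The others ran from -0.94 for Rrp9, a protein of the U3 snoRNP (adjusted p = 0.0664), through the RNA acetyltransferase gene Nat10 (-0.64), Noc4l (-0.53), Utp20 (-0.40), Nop14 (-0.31) and the endonuclease gene Nob1 (-0.25) to Wdr43 (-0.19). The class had a median of -0.47, and 7 of its 11 genes had ages that did not overlap, all lower at E17.5.

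Rrp1b, a nucleolar protein of large subunit assembly, had the largest fall of all members. It had 8.97, 9.24 and 8.37 at E17.5, against 10.24, 10.21 and 10.63 at E12.5. Signal at E17.5 was 35.4% of that at E12.5, a difference of -1.5 (SE 0.24, adjusted p = 0.00732). Its 2 other probe sets fell by 1.71 (adjusted p = 0.00133) and by 1.88 (adjusted p = 0.00218), so all 3 were called in the fit over probe sets.

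Noc2l, a nucleolar factor that moves with the precursor of the large subunit, had 9.15, 9.19 and 8.52 at E17.5 and 9.51, 10.25 and 10.14 at E12.5. It fell by 1.01 (SE 0.26, adjusted p = 0.0427; 0.0754 with E17.5 A and B averaged). Its other probe set, at a mean of 6.91, differed by -0.16 (adjusted p = 0.904), and with the mean of both the gene was not called (difference -0.59, adjusted p = 0.219). Wdr74 had 9.72, 9.65 and 9.66 at E17.5 and 9.92, 10.33 and 10.28 at E12.5, and it fell by 0.50 (SE 0.13, adjusted p = 0.0489; 0.147 with E17.5 A and B averaged). In both genes E12.5 replicate A stood nearest to the E17.5 arrays.

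The remaining 10 genes of the large subunit were not called. The PeBoW complex of Pes1, Bop1 and Wdr12 differed by -0.22, -0.85 and -0.70, with adjusted p-values of 0.822, 0.109 and 0.11. The rRNA methyltransferase gene Nop2 differed by -0.65, Ppan by -0.56, the helicase gene Ddx56 by -0.56 and Nop16 by -0.44, and Gnl3, nucleostemin, by -0.14. Rrs1 had 12.65, 12.57 and 12.16 at E17.5 and 12.54, 12.58 and 12.55 at E12.5 (difference -0.10, 95% interval -0.43 to 0.24). Ebna1bp2 was the single member with all E17.5 arrays above all E12.5 arrays. It had 11.15, 11.20 and 11.30 at E17.5 and 11.11, 11.10 and 11.06 at E12.5, a difference of 0.13 (95% interval -0.08 to 0.33, adjusted p = 0.45). The class of 13 genes had a median of -0.56.

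Cad, the enzyme that carries out the first steps of pyrimidine synthesis, had 9.63, 9.43 and 9.57 at E17.5, against 10.72, 10.98 and 11.20 at E12.5. The ages were separated by over 1 log2 unit, and the gene fell by 1.42 (SE 0.14, adjusted p = 0.00109), to 37.3% of the E12.5 signal. Another Cad probe set fell by 1.35 (adjusted p = 0.0436), and the third was dim at both ages (mean 2.27). Odc1, ornithine decarboxylase, which starts polyamine synthesis, had 12.78, 12.79 and 13.03 at E17.5 and 13.31, 13.14 and 13.17 at E12.5. Its ages did not overlap, but the difference of -0.34 was not called (adjusted p = 0.0758). Srm, spermidine synthase, differed by -0.61 (adjusted p = 0.0904).

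**Figure D3:**
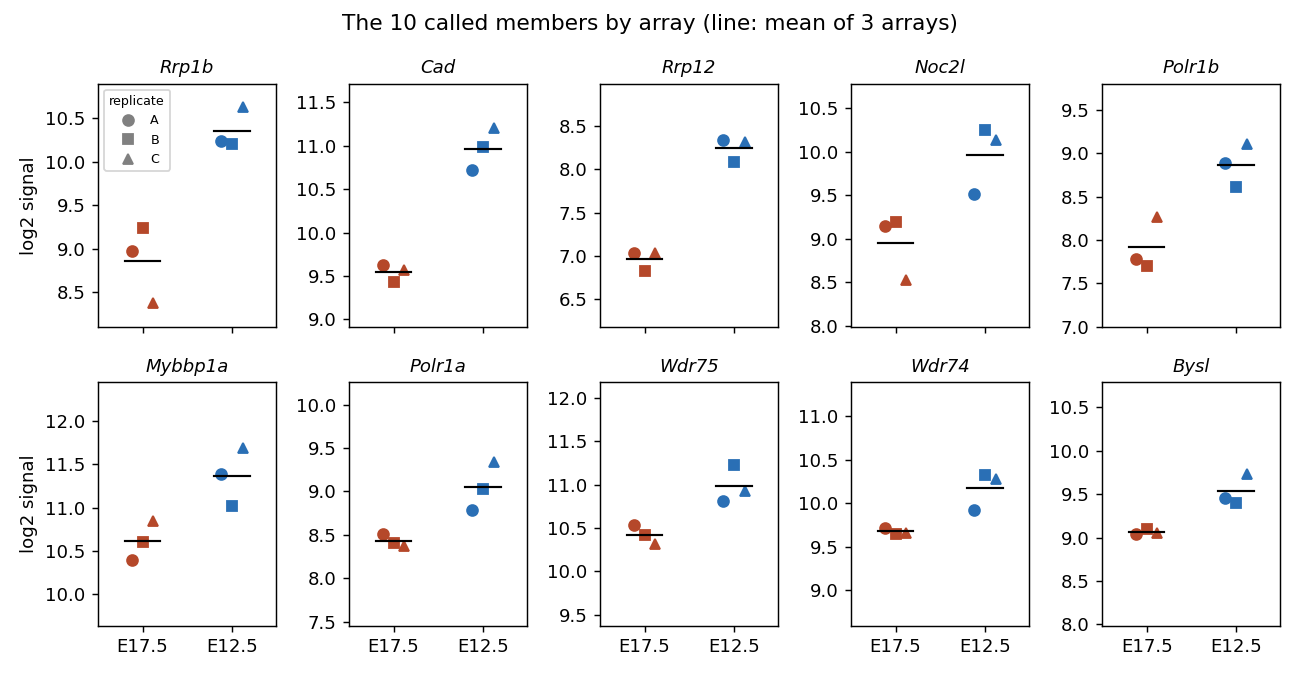
Log2 signal (vertical axis, of equal span in every panel) of the 10 called members in each array, with E17.5 left of E12.5, symbols for replicates A, B and C and a line at the mean of 3 arrays. The ages do not overlap in any panel, and the gap is widest in Cad and Rrp12.

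The arrays of one age were not alike over these genes. E12.5 replicate A stood at least 0.5 below the mean of E12.5 B and C in 10 members and at least 0.5 above it in none. The gap was -1.08 for Ppan, -1.06 for Bop1, -0.96 for Pes1 and -0.94 for Nolc1, and in these 4 genes the E12.5 A signal of 9.25, 8.48, 10.05 and 10 lay in or near the E17.5 range. E17.5 replicate C stood at least 0.5 below the mean of E17.5 A and B in 8 members, among them Pes1, Ppan, Fbl, Ncl and Rrp1b, and at least 0.5 above it in 3, which were Wdr12, Noc4l and Polr1b. E17.5 C had the lowest of the 6 values in 22 members, and E12.5 C the highest in 17. Across the 41 members the within-age shifts of E12.5 A and E17.5 C had a Pearson correlation of 0.48; genes on one pair of arrays are not independent, and over 8758 genes the deviations of these 2 arrays had a correlation of 0.37. What sets these arrays apart was not tested.

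**Figure D4:**
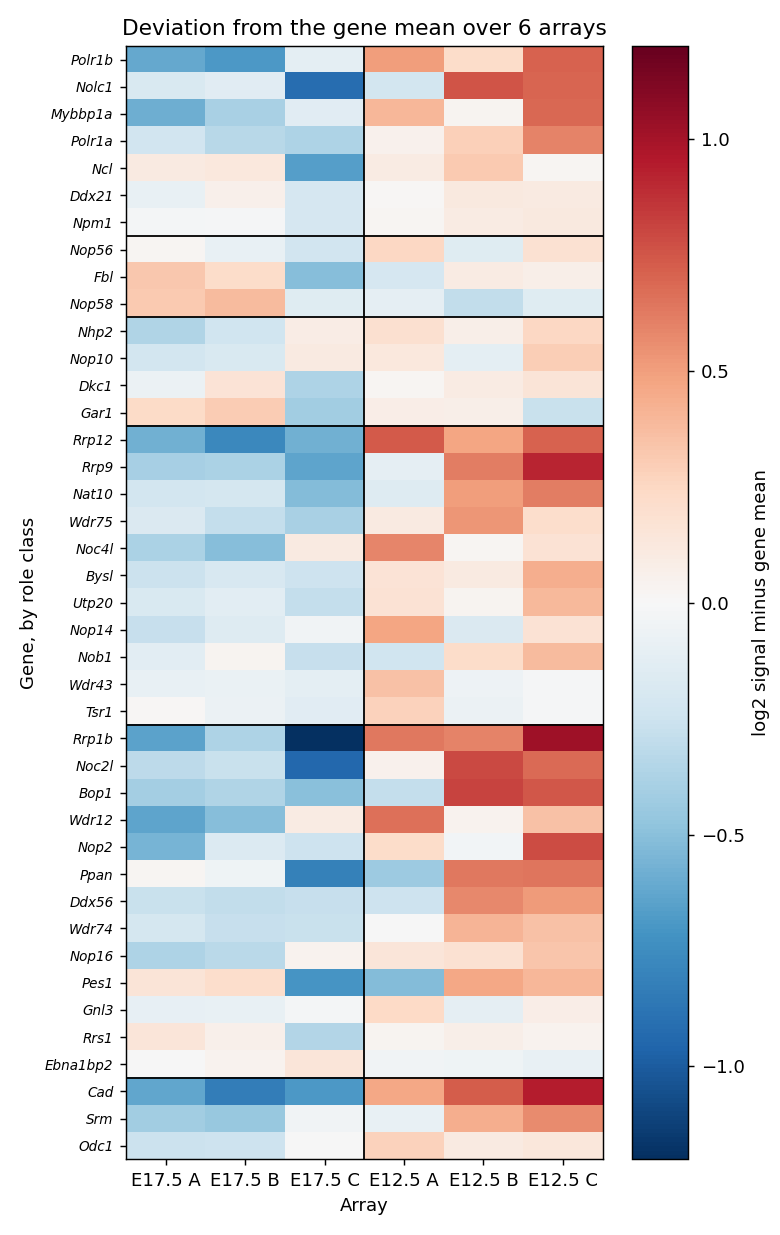
Log2 signal of each member minus its mean over the 6 arrays (colour), with genes by role class in rows and arrays in columns, E17.5 left of E12.5. Most rows are blue at E17.5 and red at E12.5, while E12.5 A is pale or blue in Ppan, Pes1, Bop1 and Nolc1 and E17.5 C is darkest in Rrp1b.

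The members with high signals differed less between ages. The 24 members with a mean of at least 10 had a median difference of -0.20 and 3 calls, and the 17 members under 10 had a median of -0.64 and 7 calls. Spearman's rho between mean signal and difference was 0.70 over the 41 members and 0.04 over the 6206 genes with a mean of at least 8. Of 42 further probe sets of the members, 33 had the same sign as the chosen one, as did 27 of the 29 with a mean of at least 6. Called lower were 6 of the 42, called higher none. They included probe sets of Nop10 (-0.62, adjusted p = 0.0144) and Odc1 (-0.43, adjusted p = 0.0157), genes whose brightest probe set was not called.

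The rest of the pathway was read from a further list, likewise chosen with earlier results of these data known. It held 126 other ribosome biogenesis genes, of which 124 were measured. Among them 31 fell (25.0%, against 8.73% of all genes and 13.0% of genes with a mean of at least 8), none was called higher and 93 were not called, with 107 differences below 0 and a median of -0.42. With E17.5 A and B averaged 8 were called lower (6.45%), a share near the 6.12% of genes with a mean of at least 8 and the 4.54% of all genes. Taf1c had the largest difference (-1.60) but was not called (adjusted p = 0.0568). The largest called falls were those of Polr1e, an RNA polymerase I subunit (-1.41, SE 0.18, adjusted p = 0.00273), the helicase gene Ddx51 (-0.97, SE 0.14, adjusted p = 0.00463), Nol12 (-0.95, SE 0.17, adjusted p = 0.0104) and Nle1 (-0.95, SE 0.25, adjusted p = 0.0447). Polr1e had 7.12, 7.06 and 6.95 at E17.5, against 8.18, 8.58 and 8.61 at E12.5. Of the RNA polymerase I subunits besides Polr1e, Polr1g (-0.87, adjusted p = 0.0671), Polr1h (-0.27), Polr1c (-0.26), Polr1f (-0.23) and Polr1d (0.06) were not called. By group, 14 of 42 large subunit genes, 12 of 48 small subunit genes, 3 of 8 snoRNP assembly genes, 1 of 14 RNA polymerase I genes and 1 of 12 exosome genes fell.

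Mycn, a Myc paralogue active in embryonic progenitors, had 9.05, 9.13 and 8.87 at E17.5, against 11.38, 11.03 and 11.39 at E12.5, and fell by 2.25 (SE 0.14, adjusted p = 0.000182). Myc had 8.07, 8.05 and 7.28 at E17.5 and 7.77, 8.92 and 9.52 at E12.5 (difference -0.94, adjusted p = 0.254). Mycl differed by -0.71 (adjusted p = 0.176). Of 17 measured genes of proliferation Plk1, a mitotic kinase, fell (-0.62, adjusted p = 0.0325), the other 16 were not called, and the median was -0.13. All but Tyms had a mean signal of at least 10, the range in which the members' median was -0.20, and the difference between the lists was not tested. Those 16 were Mki67, Pcna, Mcm2, Mcm3, Mcm4, Mcm5, Mcm6, Mcm7, Top2a, Cdk1, Bub1, Aurkb, Ccna2, Rrm2, Tyms and Cdc6, with differences from -0.34 to 0.26.

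Markers of other cells also differed between the ages, and their part in the results above was not tested. In the muscle progenitor list 1 of 8 markers was higher and 1 lower. Its log2 summed signal was 14.74 to 15.16 at E17.5 and 14.53 to 15.00 at E12.5. Pax7 stood at 12.37 ± 0.15 at E17.5 and 11.46 ± 0.28 at E12.5 and was called higher. Pax3 fell by 2.56 (adjusted p = 0.0142). Of the 8 markers, 4 had a difference below 0 and 4 above 0. The erythroid list, with 3 of 9 markers lower, was at 6.30 to 6.74 at E17.5 and 13.04 to 14.94 at E12.5, the embryonic globins Hbb-y, Hba-x and Hbb-bh1, while the erythroid factors Klf1 and Gata1 were under 4 at both ages. Cartilage markers (1 of 5 lower) were at 8.11 to 9.76 at E17.5 and 11.75 to 12.57 at E12.5. The E12.5 sum rests on Col9a1, which fell by 4.02. Col2a1 (-2.61), Matn1 (-0.91), Sox9 (-0.75) and Acan (0.37) were not called. Glia and neuron markers (2 of 5 lower) were at 9.69 to 10.06 at E17.5 and 12.32 to 12.94 at E12.5, a sum that rests on Erbb3, while Sox10, Tubb3 and Stmn2 were under 4 at both ages. Leukocyte markers (2 of 6 lower) were at 6.81 to 7.32 at E17.5 and 7.92 to 9.20 at E12.5, with Ptprc under 4. Connective tissue markers, with 2 of 8 higher and 2 lower, were at 14.64 to 14.98 at E17.5 and 13.26 to 14.72 at E12.5. That sum rests on Col1a2 and Col3a1, which were not called. Dpt (9.04) and Col1a1 (2.76) were called higher, and Pdgfra (-3.68) and Twist2 (-3.21) lower. Endothelial markers (1 of 7 higher, Tek) were at 10.13 to 10.42 at E17.5 and 6.65 to 8.04 at E12.5. The E17.5 sum rests on Tek, and Pecam1 and Cdh5 were under 4 at both ages. The other 6 endothelial markers had differences below 0, from -1.37 for Kdr to -0.003 for Pecam1, and were not called. Keratinocyte markers were at 10.32 to 11.47 at E17.5 and 9.43 to 10.08 at E12.5, a sum that rests on Krt10, which was called higher (2.14). Of the other keratinocyte markers Trp63 fell by 2.39, and Krt5 (-0.81), Krt14 (-0.89) and Krt15 (-0.97) were not called. Within E12.5, replicate B had the highest sum in the cartilage, connective tissue, endothelial, erythroid, keratinocyte and leukocyte lists. It had the lowest in the muscle progenitor list (14.53) and in the glia and neuron list (12.32). What sets E12.5 B apart was not tested.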

How the data were processed

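The 6 samples of sorted limb cells were each hybridised to 1 Affymetrix array of the single-colour kind. Trypsin was used to free the cells, which were sorted for GFP, and 100 ng of RNA per sample entered an Affymetrix kit with repeated 3' amplification, per the labels' protocols. Such amplification favours 3' ends. The authors deposited 1 log2 value per probe set and array. The submitters' processing notes name GCRMA, and its version is not given in the sources used here. Its model removes background according to probe sequence and brings arrays to one distribution, and it leaves dim probe sets with little spread.

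Of 44994 probe sets 34909 had 1 symbol, 931 with several symbols were dropped, and 9154 have no name here. Gene symbols were brought up to date through the Entrez ID and RefSeq (GRCm38.p6), and each of 18182 genes was represented by its probe set with the highest mean. Of the 41 chosen member probe sets, 10 have IDs (_s_at or _x_at) that can match several transcripts. Polr1f, Polr1g and Polr1h were found under older symbols.

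The test was lmFit and eBayes (with an intensity trend) of limma 3.58.1, run under R 4.3.3, without a filter or covariate, with Benjamini-Hochberg adjustment over all genes at 0.05. The members and lists were chosen with earlier results of these data known. All members are named; values in every array are given for called members and, per role class, for the largest rise, the largest fall and the smallest difference. Of the other pathway genes the 4 largest called falls and rises are named. The fit was also run on simulated data with independent noise on each array. It recovered 40.2% of 1.5-fold and 59.7% of 2-fold changes, and 5.08% of its calls were false. The simulation left out the likeness of E17.5 A and B, so it does not check the calls made on these arrays. The alternatives were the replicate letter as a block, E17.5 A and B averaged, other choices of probe set, filters at 4 and 6, a floor at 4, no intensity trend, array weights, further quantile normalization, centring on genes with a mean of at least 8, a threshold of 0.01, and leaving out each array. The number of arrays limits the precision, and p-values measure the spread between these arrays. Promoter sequences are from RefSeq. Figures were drawn with matplotlib 3.10.9.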

Additional observations from a re-analysis of the deposited data

How the results depend on the processing

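The count of members called lower depended on the fit, while the direction of the set did not: between 35 and 39 members had a difference below 0, and the median stayed between -0.54 and -0.37, in the alternatives that gave these values. Same-letter arrays had deviations from their age means that correlated at -0.38 (A), 0.25 (B) and -0.07 (C), so the letters were not taken to pair the samples. With the replicate block 5 members were called lower, 11 other pathway genes and 1014 of all genes. After averaging E17.5 A with B these counts were 3, 8 and 825, and at an adjusted p under 0.01 they were 3, 5 and 701, with 841 of all genes higher. The floor at 4 left 4 members lower and the fit without an intensity trend 6. Array weights, which rest mostly on E17.5 A and B and E12.5 C, gave 30 members lower and 2 higher, 86 other pathway genes lower and 9 higher, 5218 of all genes lower and 3205 higher, and a median of -0.54. With a filter at a mean of 4 or of 6, 1 other pathway gene was called higher. Without 1 array, members called lower ranged from 3 to 13 and called higher from 0 to 1, other pathway genes lower from 7 to 37 and higher from 0 to 2, all genes lower from 770 to 1776 and higher from 969 to 1553. Members called lower numbered 3 without E12.5 C, E17.5 A or E17.5 B, 5 without E12.5 B, 9 without E17.5 C and 13 without E12.5 A. Fits without 1 array also rest on fewer arrays, and the causes of these shifts in the counts were not tested.

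Rrp1b, Cad and Rrp12 were called in each of 17 alternatives at a threshold of 0.05, with highest adjusted p-values of 0.0315, 0.0296 and 0.0206, and the other 7 called members each lost the call in at least 1. No called member changed sign. Of uncalled members 6 did in some fits. Fbl was at -0.11 with E17.5 A and B averaged, -0.037 with the mean of probe sets, -0.093 without _s_at and _x_at probe sets, -0.0011 with quantile normalization, -0.0067 centred on bright genes, and -0.135 to 0.28 without 1 array (-0.075 for E12.5 A, -0.135 for E17.5 A and -0.085 for E17.5 B). Gar1 was at -0.038 with E17.5 A and B averaged, -0.038 without E12.5 C, -0.020 without E17.5 A, -0.055 without E17.5 B and at most 0.305 without 1 array. Nop56 was at 0.018 with the mean of probe sets and 0.23 without _s_at and _x_at probe sets. Array weights put Ncl at 0.057 and Rrs1 at 0.060, and without E17.5 C Pes1 was at 0.073 and Rrs1 at 0.053, with Rrs1 as low as -0.19 without E17.5 A.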
